A study of Mus musculus with 6 samples.

Results

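Hearts of newborn mice with a cardiac knockout of Kdm5b were compared with control hearts at the level of the genes that copy DNA. The 47 genes described here encode the origin recognition complex, the Cdc45 and GINS parts of the replicative helicase, the polymerases, the sliding clamp and its loader, nucleotide synthesis enzymes, fork protection proteins and chromatin assembly factors. They were picked by gene name from the 56748 genes of the deposited table, which held all 47, and the MCM and licensing genes were left out of the set. Hearts at postnatal day 1 came from control mice of genotype FF, also called Flox, or from Kdm5b cKO mice, the cardiac knockout. Each group had 3 libraries. The sources used here do not give the driver of the recombinase, the strain, or whether every library is from its own animal. The p-values therefore measure the spread between these libraries, which may be technical.

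DNA replication starts where the origin recognition complex loads the MCM helicase, which Cdc7 and Dbf4 then activate together with Cdc45 and GINS. Polymerase alpha and primase lay down primers, polymerases epsilon and delta extend them on the leading and lagging strands, and PCNA, loaded by replication factor C, holds the polymerases on DNA. Ribonucleotide reductase, thymidylate synthase, thymidine kinase and dUTPase supply the nucleotides, and CAF-1, DNMT1 and UHRF1 restore histones and DNA methylation behind the fork. Many of these genes are transcribed at the G1 to S transition under the E2F factors. Heart muscle cells still divide around birth and leave the cell cycle in the first days after it.

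The libraries held 15658893 to 20339926 reads, and a tested member rested on 63 to 2883 reads in a library. FF replicate 3 stood apart: its correlation with the other libraries across tested genes was 0.880 to 0.909, against 0.954 to 0.984 among the other 5, a description across genes. The 17 markers of thymocytes and T cells summed to 362 FPKM there and to 2.59 to 3.64 FPKM elsewhere, where 4 to 7 of them were at 0. FPKM is a fragment count scaled by gene length and library size. All 11 heart muscle markers were read in every library, with sums of 15416 to 18350 FPKM. For Kdm5b itself, FF libraries averaged 3.45 ± 0.406 FPKM and cKO libraries 2.86 ± 0.149 (SD over 3 libraries, exact two-sided permutation p = 0.1, the smallest that 3 against 3 allows). In limma with all 6 libraries Kdm5b had a log2 difference of -0.20 and did not pass (adjusted p = 0.447). These values are read over the whole gene and all cell types, and so check the labels only coarsely. Results are therefore given with and without FF replicate 3.

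Promoter sequences were available from RefSeq (GRCm38.p6) for 40 of the 47 genes, as windows from 250 bases before to 50 bases after an annotated start. An E2F word (TTTCCCGC, TTTGGCGC, TTTCGCGC or TTTGCCGC, on either strand) was found in 12 of these genes, 30%, against 2.6% of all 27025 genes with a window and 4.87% of the 9113 tested genes with a window. Gins3 and Pold3 held a word and did not fall without FF replicate 3, and Orc1 held one and was not tested. The 30 bases around the word are given for 8 genes that fell without FF replicate 3 and for Orc3, which did not, to set a promoter of each kind side by side. They read 5′ to 3′ on the strand of the gene, with 1 word or its reverse complement in capitals.
Uhrf1: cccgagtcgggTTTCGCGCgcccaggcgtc
Lig1: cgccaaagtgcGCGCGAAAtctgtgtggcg
Rfc3: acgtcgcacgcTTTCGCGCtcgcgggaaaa
Pole2: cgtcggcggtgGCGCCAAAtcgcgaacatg
Pold1: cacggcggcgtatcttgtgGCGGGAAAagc
Dnmt1: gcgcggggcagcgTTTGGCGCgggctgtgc
Clspn: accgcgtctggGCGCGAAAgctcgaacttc
Pola1: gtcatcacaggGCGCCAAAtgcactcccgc
Orc3: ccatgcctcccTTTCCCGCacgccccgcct

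The Uhrf1 site lies at chr17:56304117-56304146 on the plus strand with the word starting 185 bases before the start, and the Pola1 site at chrX:93632275-93632304 on the minus strand, 138 bases before it. The words of Lig1, Pole2, Pold1, Dnmt1 and Clspn start 26, 10, 39, 33 and 21 bases after the start, and those of Rfc3 and Orc3 start 10 and 41 bases before it. The Rfc3 stretch holds another word, left in lower case near its end, and Dnmt1 held another that is not printed. The CCAAT box (CCAAT) was in 22 of the 40 genes, 55%, against 43% of tested genes with a window, and the CHR element (TTTGAA or TTCGAA) in 8, 20%, against 16.3%. These are matches of letters, with no measure of binding.

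Most replication genes read lower in cKO hearts, and how many passed a test turned on FF replicate 3. Of the 47 genes, 45 had a mean of at least 1 FPKM and were tested, and 39 of them had a negative log2 difference (cKO minus FF), 86.7% against 49.3% of all 12678 genes tested. The median log2 difference was -0.49 on the log2(FPKM + 1) scale, beside 0.01 over all genes tested. With all 6 libraries, 0 of the 45 passed an adjusted p of 0.05 in limma, where 0.0947% of all genes passed as lower and 0.071% as higher. The smallest adjusted p of a member was 0.0659. Limma voom on recovered reads also gave 0, against 0.0394% and 0.0473% of all genes. At an unadjusted p under 0.05, limma gave 28 members lower, where the share over all genes was 9.55%, and 1 higher, where it was 8.39%; voom gave the same counts, against 9.21% and 8.79%. In 30 members all 3 cKO values lay below all 3 FF values, 66.7% against 14.5% of all genes tested, and in 1 member, Orc5, they lay above, against 13.5%.

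Without FF replicate 3, 22 of the 45 members fell and 0 rose in limma, 48.9% against 6.26% of all genes that passed as lower and 5.73% as higher. In all, 42 of the 45 had a negative difference, against 51.3% of all genes. Log2 differences of the 22 ran from -1.24 to -0.49, with adjusted p from 0.0175 to 0.0492. With voom, 27 fell, against 10.1% of all genes, and 0 rose, against 9.09%. With library weights and all 6 libraries 32 fell, against 17%, and 1 rose, Orc5, against 16.9%. These weights were 0.828, 5.69 and 0.0860 for FF replicates 1, 2 and 3 and 0.954, 1.24 and 2.09 for cKO replicates 1, 2 and 3. In that fit FF replicate 3 thus counted for little, and the FF level rested mostly on FF replicate 2. All 3 cKO values lay below FF replicates 1 and 2 in 37 members, against 27% of all genes, and above both in 1, against 25%. The median over the 45 was -0.49, as with all libraries, while the median over all genes was -0.01. The number that passed thus moved with FF replicate 3 and the median did not. In whole hearts, fewer cells in S phase and less RNA per cell cannot be told apart.

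**Figure D1:**
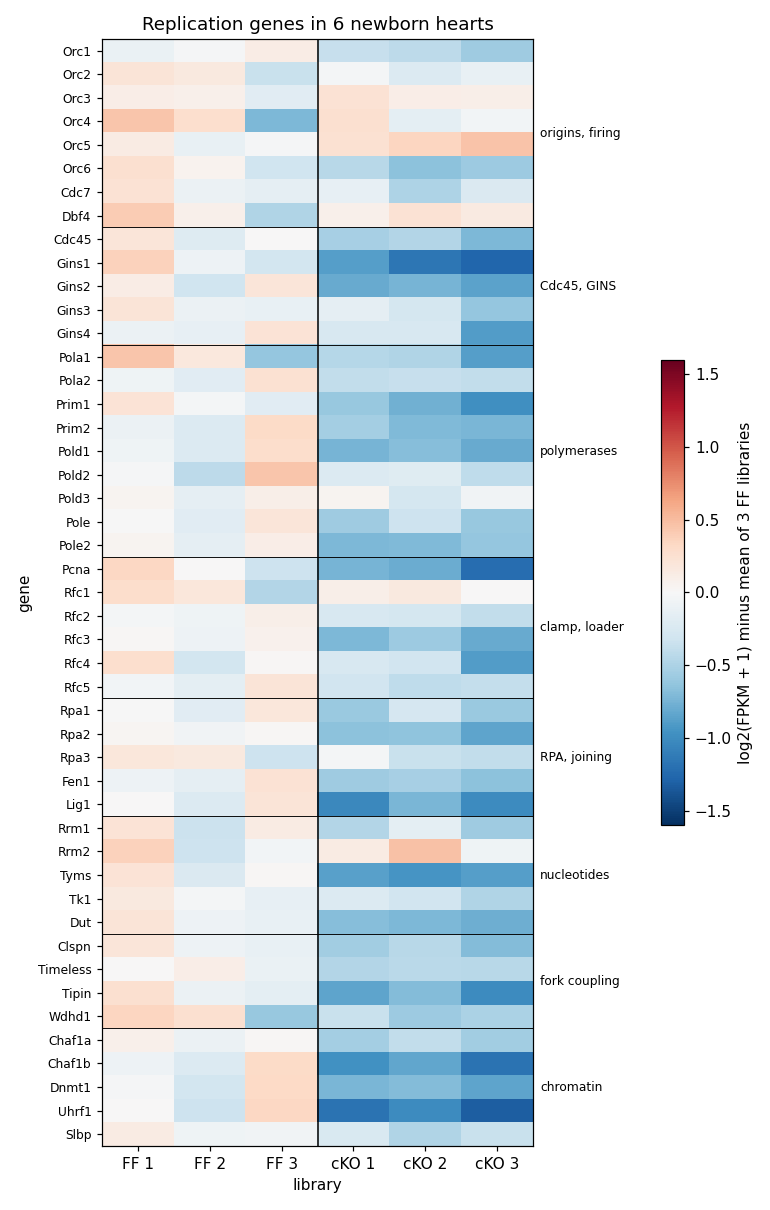
Colour gives log2(FPKM + 1) of each of the 47 genes (rows, grouped by role) in each library (columns) minus the mean of the 3 FF libraries, blue for lower and red for higher. The cKO columns are blue for most rows outside the origin complex, with Uhrf1, Gins1 and Pcna among the darkest, and Rrm2, Orc3 and Orc5 are not.

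**Figure D2:**
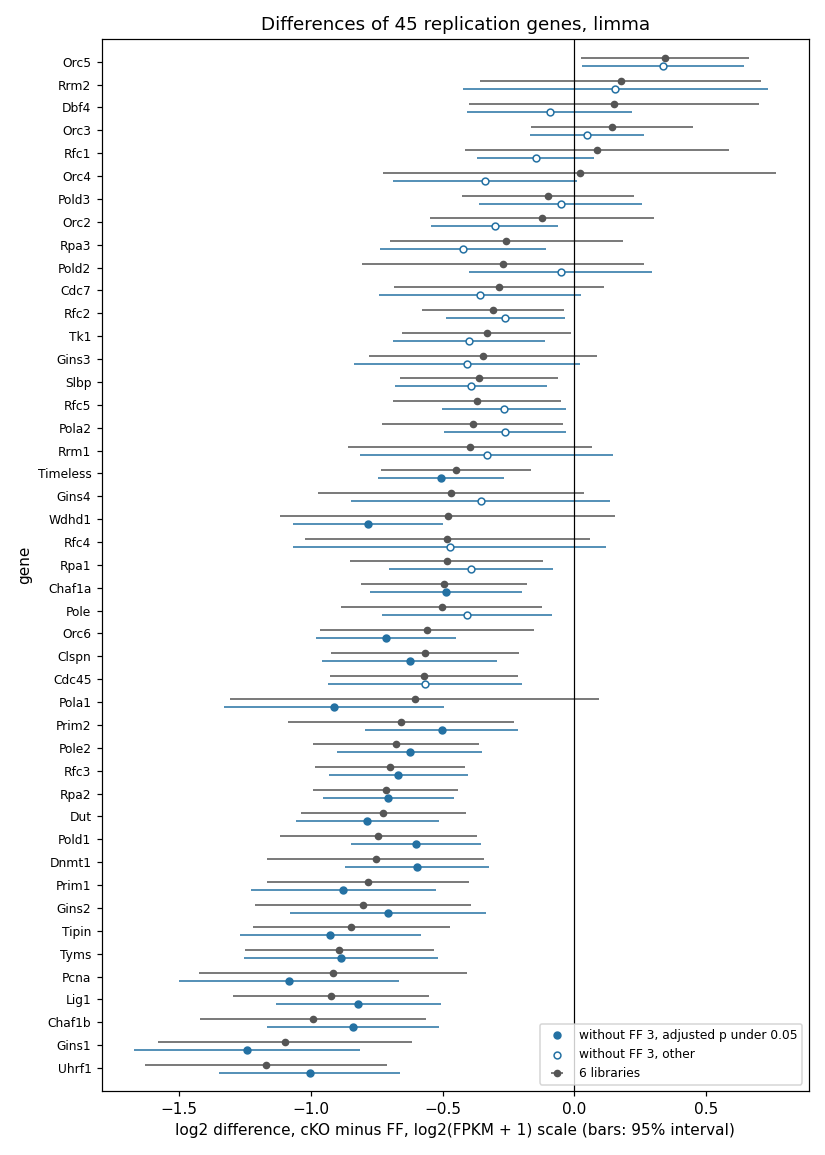
Points give the log2 difference of each of the 45 tested genes (cKO minus FF, log2(FPKM + 1) scale) and bars its 95% interval in limma, in grey with 6 libraries and in blue without FF replicate 3. Filled blue points mark the 22 genes with an adjusted p under 0.05 without FF replicate 3, and all 22 lie left of 0.

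The origin recognition complex split by subunit. In the following, values in a series of 6 are FPKM in FF replicates 1, 2 and 3 and then cKO replicates 1, 2 and 3. Orc6 (chromosome 8, 86026261 to 86034907), the subunit that recruits the helicase loader, was at 12.95, 11.2, 8.44, 7.63, 6.43 and 6.87. All cKO values lay below FF, and it fell without FF replicate 3 (log2 difference -0.72, adjusted p = 0.0191), against -0.56 and an adjusted p = 0.172 with 6 libraries in limma. Orc1, the subunit whose level rises and falls with the cell cycle, was below the filter, at 1.14, 1.28, 1.502, 0.786, 0.727 and 0.556, again without overlap. Its 42 to 100 reads per library make it imprecise, and with no filter its log2 difference was -0.45 (limma adjusted p = 0.361).

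The core subunits Orc2 to Orc5, which stay on chromatin through much of the cycle, did not pass in either fit. Orc3 was at 9.86, 9.66, 7.86, 10.8, 9.84 and 9.75, groups that overlap, with a log2 difference of 0.14 (95% interval -0.17 to 0.45). Orc5 (chromosome 5, 22691483 to 22755427) was at 2.38, 1.85, 2.06, 2.65, 2.90 and 3.22, so every cKO value exceeded every FF value. Its difference of 0.34 (95% interval 0.02 to 0.66, limma adjusted p = 0.251) did not pass, nor did it without FF replicate 3 (0.34, adjusted p = 0.124). Orc2 and Orc4 had differences of -0.12 and 0.02, and -0.30 and -0.34 without FF replicate 3, where Orc4 was at 2.30 FPKM against 5.56 and 6.42 in the other FF libraries. The sign of Orc4 therefore turned without that library, as it did under other alternatives given in the closing section. Neither gene passed in these fits, and Orc2 passed as lower with library weights (-0.29, limma adjusted p = 0.0268). Per gene length, Orc3 and Orc6 were the most abundant subunits in FF hearts (9.13 and 10.9 FPKM on average) and Orc1 the least (1.31).

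Cdc7, the kinase that fires licensed origins, and Dbf4, its activating subunit, did not pass in either fit. Cdc7 was at 3.37, 2.48, 2.37, 2.38, 1.65 and 2.16, with a difference of -0.29. Dbf4 was at 4.56, 3.43, 1.99, 3.43, 3.91 and 3.63, with a difference of 0.15, which turned to -0.09 without FF replicate 3.

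Cdc45 and the 4 GINS subunits, which complete the active helicase, all read lower in cKO hearts without overlap, and Gins1 and Gins2 fell without FF replicate 3. Gins1 (chromosome 2, 150747320 to 150773200) was at 9.93, 7.01, 5.93, 3.61, 2.80 and 2.52. Its mean was 60.9% lower in cKO, from 7.62 ± 2.07 to 2.98 ± 0.563 FPKM (SD, n = 3 each), with a log2 difference of -1.10 (SE 0.20, limma adjusted p = 0.0728) and -1.24 (adjusted p = 0.0175) without FF replicate 3. Gins2 was at 3.36, 2.21, 3.57, 1.29, 1.40 and 1.20, 57.5% lower on average, with an adjusted p = 0.0932 in limma and 0.0385 without FF replicate 3.

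The other helicase parts had smaller differences. Cdc45 was at 5.85, 4.17, 5.01, 3.15, 3.30 and 2.63, and its adjusted p stayed above the threshold, at 0.134 and, without FF replicate 3, 0.0601 in limma. Gins3 and Gins4 had log2 differences of -0.35 (95% interval -0.78 to 0.08) and -0.47 (95% interval -0.97 to 0.04). The groups of Gins3 were barely apart, at 1.93 FPKM in FF replicate 3 (100 reads) and 1.89 in cKO replicate 1 (101 reads). GINS is a complex with a single copy of each subunit, and the messages of its subunits differed in level, from 2.20 FPKM for Gins3 to 15.5 for Gins4 in FF hearts. Within cKO hearts, Gins4 was lowest in replicate 3, at 7.82 against 12.6 and 12.8 FPKM.

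Among the 9 polymerase and primase genes, all had negative differences and 5 fell without FF replicate 3 (Pola1, Prim1, Prim2, Pold1 and Pole2). Prim1 (chromosome 10, 127851037 to 127865906), the catalytic primase subunit, was at 7.90, 6.45, 5.73, 4.03, 3.47 and 2.88, and Prim2, the large primase subunit, at 2.19, 1.91, 3.20, 1.33, 1.08 and 1.04. Neither overlapped between groups, and both fell without FF replicate 3 (limma adjusted p = 0.0225 and 0.0467; 0.0837 and 0.141 with 6 libraries). Pola1 (chromosome X), the catalytic subunit of polymerase alpha, was at 3.57, 2.77, 1.19, 1.45, 1.40 and 0.821, so FF replicate 3 lay within the cKO range. It passed without that library (-0.91, adjusted p = 0.0301) and had -0.61 with it (adjusted p = 0.344). Pola2, its regulatory subunit, had -0.39 (adjusted p = 0.237) and -0.26 (adjusted p = 0.116) without FF replicate 3.

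The polymerases of the leading and lagging strands differed by subunit. Pold1 (chromosome 7, 44182170 to 44198273), the catalytic subunit of polymerase delta, was at 6.70, 5.89, 8.81, 3.81, 3.999 and 3.59, 46.7% lower in cKO. It fell without FF replicate 3 (-0.60, limma adjusted p = 0.0237). Its partners Pold2 and Pold3 had log2 differences of -0.27 (95% interval -0.81 to 0.26) and -0.10 (95% interval -0.43 to 0.22), and both were at -0.05 without FF replicate 3. Pole2, the second subunit of polymerase epsilon, was at 3.03, 2.54, 3.21, 1.39, 1.40 and 1.55 and fell without FF replicate 3 (-0.63, limma adjusted p = 0.0268). The catalytic subunit Pole was at 2.40, 2.01, 2.91, 1.31, 1.71 and 1.24, without overlap, and did not pass in either fit.

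Pcna (chromosome 2, 132091082 to 132095234), the sliding clamp, was among the most abundant of the 47 messages and was at 49.4, 39.4, 30.9, 23.0, 22.3 and 16.3. The lowest FF value, in replicate 3, still exceeded the highest cKO value. The mean went from 39.9 ± 9.27 to 20.5 ± 3.65 FPKM (SD, n = 3 each), 48.6% lower, with a log2 difference of -0.92 (SE 0.21, limma adjusted p = 0.105) and -1.08 (adjusted p = 0.0208) without FF replicate 3. A processed copy, Pcna-ps2, was at most 1.05 FPKM in any library. Of the clamp loader, Rfc3 fell without FF replicate 3 (-0.67, limma adjusted p = 0.0216), and its 6 values, 6.34, 5.84, 6.57, 3.41, 3.84 and 3.15, were tight within groups. Rfc2 and Rfc5, other small subunits, did not overlap between groups but did not pass (-0.31 and -0.37), and Rfc4 overlapped. Rfc1, the large subunit, was at 10.9, 10.1, 6.10, 9.44, 9.92 and 8.85, with a difference of 0.09 (95% interval -0.42 to 0.59) that became -0.15 (95% interval -0.37 to 0.08) without FF replicate 3.

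**Figure D3:**
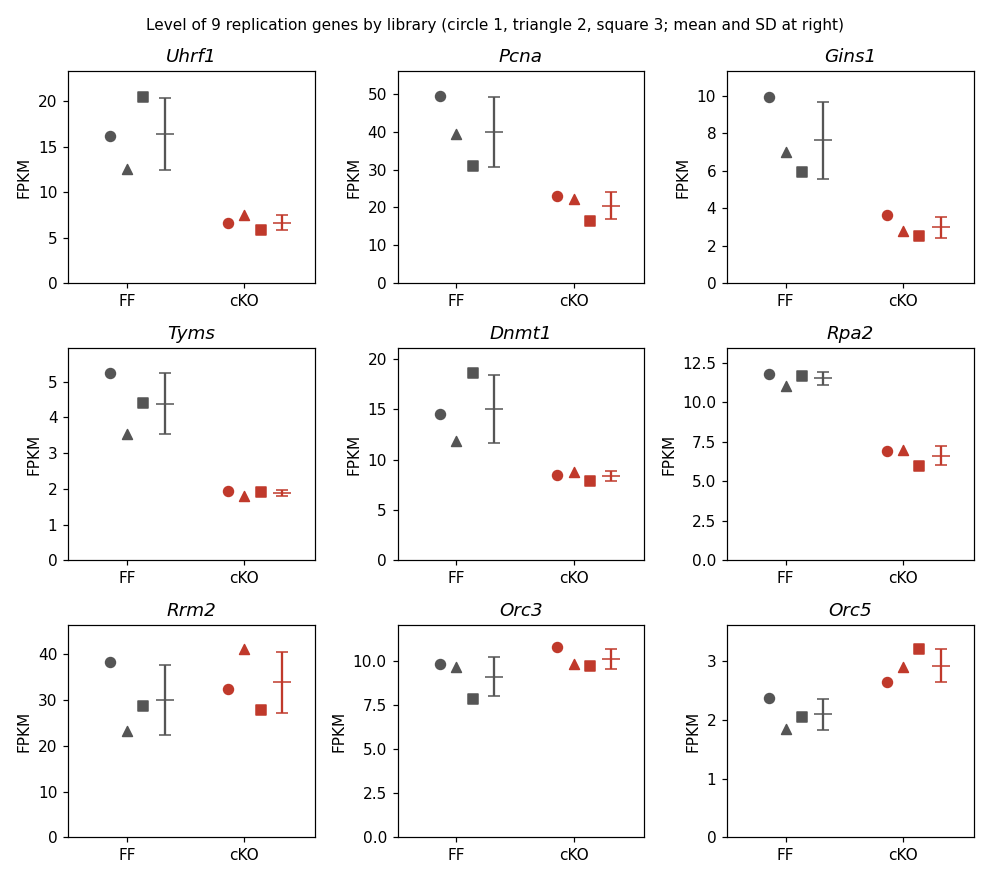
Each panel plots FPKM of a gene in the 3 FF (grey) and 3 cKO (red) libraries, with circle, triangle and square for replicates 1, 2 and 3 and the group mean with its SD at the right. Uhrf1, Pcna, Gins1, Tyms, Dnmt1 and Rpa2 show no overlap with cKO below FF, Rrm2 and Orc3 overlap, and all Orc5 values of cKO lie above FF.

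Replication protein A coats single-stranded DNA at the fork as a trimer, and its subunits differed too. Rpa2 (chromosome 4, 132495643 to 132506063) had the smallest p of all members and little spread, at 11.8, 11.1, 11.7, 6.95, 6.98 and 5.96. The mean was 42.5% lower in cKO, from 11.5 ± 0.412 to 6.63 ± 0.584 FPKM (SD, n = 3 each), with a log2 difference of -0.72 (SE 0.11, limma adjusted p = 0.0659), and it fell without FF replicate 3 (-0.71, adjusted p = 0.0176). Rpa1, the large subunit, was at 20.6, 18.0, 23.6, 13.4, 16.9 and 13.3, without overlap and short of the threshold (limma adjusted p = 0.185 and, without FF replicate 3, 0.0924). Rpa3, the smallest, overlapped and had -0.26 (95% interval -0.70 to 0.18).

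Lig1 and Fen1 join and trim Okazaki fragments. Lig1 (chromosome 7, 13011239 to 13045350) was at 12.7, 10.8, 14.7, 5.64, 7.18 and 5.81, 51.2% lower in cKO, and fell without FF replicate 3 (-0.82, limma adjusted p = 0.0207; -0.92 and 0.0673 with 6 libraries). Fen1 was the lowest of the 47 messages, at 0.991, 0.904, 1.47, 0.418, 0.460 and 0.342. It had 18 to 68 reads per library and was not among the tested genes, although the groups did not overlap. With no filter on low values its log2 difference was -0.58 (limma adjusted p = 0.257).

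Nucleotide synthesis genes parted ways. Tyms (chromosome 5, 30263200 to 30278615), which makes thymidylate, was at 5.23, 3.54, 4.39, 1.94, 1.79 and 1.91. The mean was 57.2% lower in cKO, with a log2 difference of -0.89 (SE 0.15, limma adjusted p = 0.0673) that was also -0.89 without FF replicate 3 (adjusted p = 0.0239). Dut, the dUTPase that keeps uracil out of DNA, was at 16.3, 13.1, 12.8, 8.38, 8.10 and 7.72 and fell without FF replicate 3 (-0.79, adjusted p = 0.0175). In both genes FF and cKO were clearly apart, with a narrow cKO range.

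Ribonucleotide reductase, which turns ribonucleotides into deoxyribonucleotides, did not pass in either fit. Its small subunit Rrm2, with the highest mean of the 47 genes, was at 38.3, 23.3, 28.6, 32.4, 41.2 and 27.9. The groups overlapped, with a log2 difference of 0.18 (95% interval -0.36 to 0.71, limma adjusted p = 0.727) and 0.16 (95% interval -0.42 to 0.73) without FF replicate 3. The large subunit Rrm1 was at 14.7, 9.56, 13.7, 8.74, 11.05 and 8.06 with -0.40 (95% interval -0.86 to 0.07). Tk1, the salvage thymidine kinase, was at 8.15, 7.03, 6.45, 6.05, 5.61 and 4.87, without overlap, and did not pass (limma adjusted p = 0.266 and, without FF replicate 3, 0.074).

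All 4 fork protection and coupling genes fell without FF replicate 3. Tipin (chromosome 9, 64188863 to 64212706), the partner of Timeless in the fork protection complex, was at 20.1, 15.7, 14.9, 8.86, 9.99 and 7.86, and Timeless at 3.46, 3.78, 3.12, 2.20, 2.28 and 2.28. Both were free of overlap, 47.3% and 34.7% lower in cKO, with limma adjusted p = 0.0191 and 0.0315 without FF replicate 3 and 0.0745 and 0.139 with it. Clspn, the mediator of checkpoint signals at stalled forks, was at 3.42, 2.65, 2.56, 1.61, 1.84 and 1.38 and fell without FF replicate 3 (-0.63, adjusted p = 0.0394). Wdhd1, which ties polymerase alpha to the helicase, was at 3.42, 3.15, 1.29, 1.72, 1.31 and 1.45, so FF replicate 3 was the lowest of all 6 libraries. The call for Wdhd1 (adjusted p = 0.0184) thus rests on leaving that library out, and the adjusted p was 0.405 with it.

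Of the 5 genes that rebuild chromatin and DNA methylation, 4 fell without FF replicate 3. Uhrf1 (chromosome 17, 56610321 to 56630486), which recruits DNMT1 to newly copied DNA, was at 16.1, 12.6, 20.5, 6.56, 7.48 and 5.84. The lowest FF value was well above the highest cKO value, and the mean went from 16.4 ± 3.98 to 6.63 ± 0.824 FPKM (SD, n = 3 each), 59.6% lower. Its log2 difference was -1.17 (SE 0.19, limma adjusted p = 0.0664) and -1.004 (adjusted p = 0.0175) without FF replicate 3. Dnmt1 (chromosome 9, 20818505 to 20871184), the maintenance methyltransferase, was at 14.6, 11.9, 18.6, 8.52, 8.76 and 7.84, 44.3% lower, and fell without FF replicate 3 (-0.60, adjusted p = 0.0299).

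The histone chaperone CAF-1 followed. Chaf1b (chromosome 16, 93680789 to 93703003) was at 4.22, 3.77, 5.84, 1.84, 2.11 and 1.45, 61.0% lower in cKO, and Chaf1a at 2.48, 2.10, 2.34, 1.27, 1.52 and 1.24, 41.7% lower. Both fell without FF replicate 3 (limma adjusted p = 0.021 and 0.0492; 0.0722 and 0.139 with 6 libraries). Slbp, which binds the stem-loop of histone messages, did not overlap between groups and did not pass (-0.36, limma adjusted p = 0.213).

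FF replicate 3 differed from the other FF libraries gene by gene, in part in step with base composition. Among the 45 tested members it was the highest of the 6 libraries in 17 and the lowest in 6. Across the 45 members, the log2 level of FF replicate 3 minus the mean of FF replicates 1 and 2 had r = 0.61 with the GC content of the transcript (rho = 0.59), and over the 12473 tested genes with a GC value r = 0.58 (rho = 0.64). These are descriptions across genes that share the same libraries. Of the 22 members with lower GC, FF replicate 3 was above the mean of the other FF libraries in 5, and of the 23 with higher GC in 16. GC-poor Orc4, Pola1 and Dbf4 (36.8%, 41.5% and 39.1% GC) stood at 0.385, 0.376 and 0.499 times that mean. GC-rich Pold2, Pold1 and Dnmt1 (58.7%, 61.0% and 54.0%) stood at 1.62, 1.40 and 1.41 times. Other members went against this trend, such as Prim2 (43.0%) at 1.56 times and Timeless (54.7%) at 0.861 times.

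When the log2 values of each library were corrected for GC content and all 6 libraries kept, 14 members fell and 0 rose in limma, 31.1% against 2.05% of all genes that passed as lower and 2.24% as higher. All 14 were among the 22 that fell without FF replicate 3: Chaf1b, Dnmt1, Dut, Gins1, Gins2, Lig1, Orc6, Pcna, Pold1, Prim1, Rpa2, Tipin, Tyms and Uhrf1. The other 8, Chaf1a, Clspn, Pola1, Pole2, Prim2, Rfc3, Timeless and Wdhd1, had GC-corrected adjusted p from 0.0504 for Pola1 to 0.198 for Timeless. The median difference of the 45 members after correction was -0.49. The corrected fit, like the counts with all 6 libraries, keeps FF replicate 3 and its thymocyte transcripts in the FF mean. The part of these transcripts in the members' values was not tested.

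**Figure D4:**
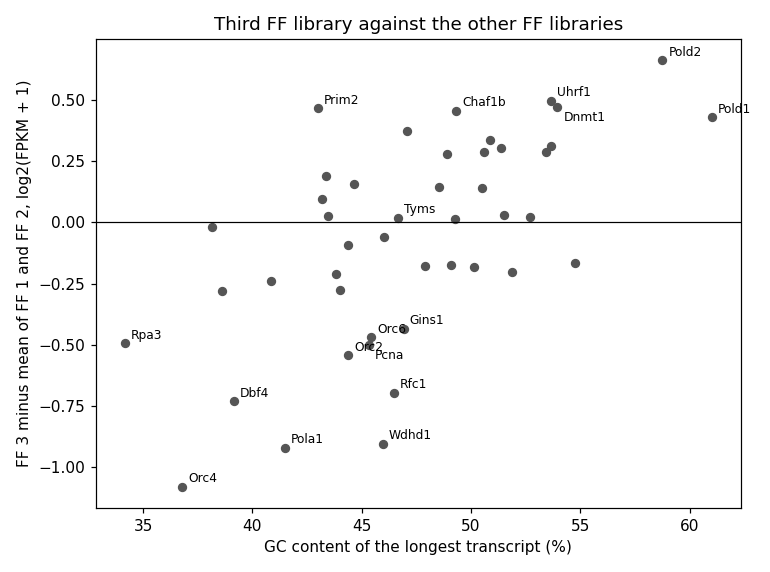
Each point is a tested member, with the GC content of its longest transcript in percent on the horizontal axis and the log2(FPKM + 1) of FF replicate 3 minus the mean of FF replicates 1 and 2 on the vertical axis. Most low-GC genes, such as Orc4 (36.8%), lie below 0 and most high-GC genes, such as Pold2 (58.7%), above. Prim2 (43.0%) above 0 and Timeless (54.7%) below it are among the exceptions.

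Members with and without an E2F word were compared as a description. The 11 tested members with a word in the promoter window had a median log2 difference of -0.68. Without FF replicate 3, 8 of them fell, where 6.26% of all genes tested fell, a share not split by word. The 27 without a word had -0.40, with 10 that fell, and the 7 with no RefSeq window -0.66, with 4. The difference between these groups was not tested, and Orc3, Pold3 and Gins3 held a word and had differences of 0.14, -0.10 and -0.35.

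Replication genes outside the set were counted from lists of the same pathway, beside the shares over all genes: 6.26% fell and 5.73% rose without FF replicate 3. The 11 MCM and licensing genes all had negative differences, with a median of -1.01. Mcm3 and Mcm5 fell with all 6 libraries (limma adjusted p = 0.0497 each) and 7 genes fell without FF replicate 3. Of 20 other initiation and fork genes tested, 6 fell without FF replicate 3 and 0 passed with it (median -0.26), with Pclaf, a PCNA-binding protein, at -0.92, Dna2, a nuclease of Okazaki fragments, at -0.62, Mms22l at -0.49 and Pole4 at -0.70 with all libraries. The difference between the medians of these lists and that of the 45 members was not tested.

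Nucleotide synthesis beyond the set showed no common direction. Of 32 genes tested, 16 had negative and 16 positive differences, with a median of 0.00. With all libraries 0 passed in limma, with 5 lower and 0 higher at an unadjusted p under 0.05, against 9.55% and 8.39% of all genes. Without FF replicate 3, 2 genes fell and 1 rose, no more than the shares of 6.26% and 5.73% over all genes. The salvage kinase Dck was lower (-0.68, limma adjusted p = 0.0476), and the gene that rose was Shmt2, the mitochondrial serine hydroxymethyltransferase (0.72, adjusted p = 0.0152), named after its values were seen. Umps and Dtymk, of pyrimidine and thymidylate synthesis, had -0.38 and -0.41 and did not pass. Of 9 other chromatin assembly genes 4 fell without FF replicate 3 and 0 passed with it. Among those that fell were Ssrp1 of the FACT chaperone, Hat1, a histone acetyltransferase, and Hells, a remodeller that acts with DNA methylation (limma adjusted p = 0.0496, 0.0261 and 0.0164). With all libraries their adjusted p was 0.167, 0.304 and 0.446. Hells was at 0.827 FPKM in FF replicate 3, below every cKO value, so its call rests on leaving that library out. Asf1b did not pass (-0.16).

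Of 13 E2F and pocket protein genes, 3 fell and 1 rose without FF replicate 3, against 6.26% and 5.73% of all genes, so that the single rise is near the share over all genes. E2f1, an activator of the S phase genes, was at 11.6, 8.47, 9.72, 3.89, 4.68 and 4.24, below FF in every cKO library, with a log2 difference of -1.05 (limma adjusted p = 0.0577; 0.0175 without FF replicate 3). Its dimer partner Tfdp1 had -0.63 (adjusted p = 0.139; 0.0362 without FF replicate 3). Rbl2, a pocket protein of resting cells, had 0.60 and rose without FF replicate 3 (adjusted p = 0.024), and Tfdp2 had 0.65 and did not pass.

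Genes of G2 and mitosis had a median of the opposite sign in the same hearts. With all libraries, 0 of the 22 tested had a negative difference, against 49.3% of all genes, and the median was 0.54. In limma 0 passed the threshold, and 9 were higher at an unadjusted p under 0.05, against 8.39% of all genes. Without FF replicate 3 the median was 0.34, 5 genes rose, against 5.73% of all genes, and the proliferation marker Mki67 and the mitotic kinase Cdk1 turned from 0.13 and 0.019 to -0.51 and -0.13, neither past the threshold. Both were named after their values were seen. Set against the mean of FF replicates 1 and 2, which mirror each other by construction, the median of the 45 members was 0.09 and -0.09 in those libraries, 0.01 in FF replicate 3 and -0.50, -0.51 and -0.58 in cKO replicates 1 to 3. The G2 and mitosis median was 0.26, -0.26, -0.18, 0.42, 0.47 and 0.25 in the same order. FF replicate 1 was thus above FF replicate 2 on both sets. The cKO medians lay below every FF median on the first set. On the second they lay above FF replicates 2 and 3, but cKO replicate 3, at 0.25, was just below FF replicate 1, at 0.26. Ccnb1, the mitotic cyclin B1, was at 13.8, 9.21, 9.87, 21.3, 22.2 and 17.3, and Kif20a, a kinesin of cytokinesis, at 6.48, 4.68, 7.54, 10.4, 13.7 and 11.4, in neither case overlapping. Bub1b and Anln had 0.49 and 0.87.

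**Figure D5:**
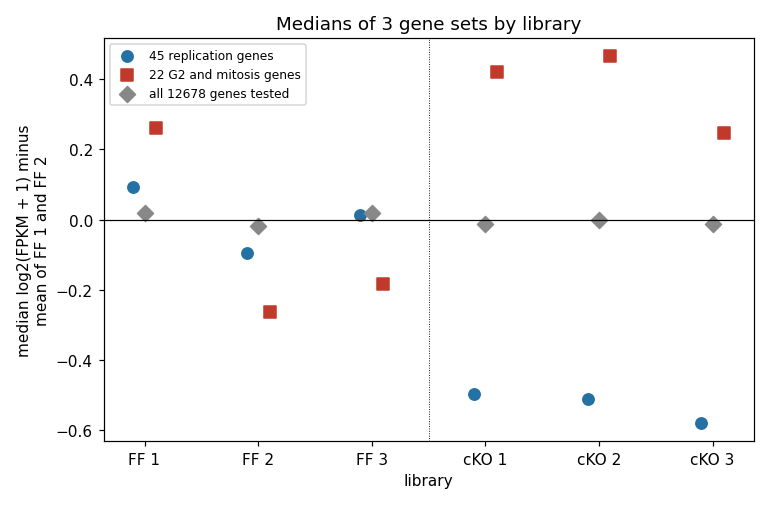
Symbols give, per library, the median log2(FPKM + 1) minus the mean of FF replicates 1 and 2 over the 45 tested replication genes (circles), 22 G2 and mitosis genes (squares) and all 12678 tested genes (diamonds). The circles of the 3 cKO libraries lie between -0.58 and -0.50 while their squares lie between 0.25 and 0.47. The square of FF replicate 1 lies at 0.26.

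Markers of other cell types were read beside these results, since blood and immune cells also replicate. Outside FF replicate 3, thymocyte and T cell markers summed to 2.59 and 2.98 FPKM in FF and 3.12 to 3.64 in cKO hearts. Macrophage markers (8 genes) summed to 60.9, 76.5 and 128 FPKM in FF and 45.8, 56.5 and 49.1 in cKO hearts, and neutrophil markers (8 genes, up to 2 at 0) to 24.9, 23.1 and 14.9 against 9.21, 10.1 and 8.24. The sums of both lists were lower in every cKO library than in any FF library, and their part in the replication gene differences was not tested. Erythroid markers (8 genes, none at 0) summed to 1002.5, 753 and 1554 FPKM in FF and 1096, 1059 and 891 in cKO, which overlap. B cell markers (5 genes) summed to 1.301, 1.355 and 2.28 FPKM in FF and 0.576, 0.519 and 0.653 in cKO hearts. Their sum too was lower in every cKO library than in any FF library. These markers were near the floor, with 0 in the fit and 1 at 0 in cKO replicates 1 and 3. Their part in the replication gene differences was not tested either. Endothelial (8 genes), fibroblast (7) and epicardial (4) sums overlapped between groups and were highest in FF replicate 3, at 409, 811 and 47.3 FPKM.

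The counting may mix reads of overlapping genes, and the sources used here do not state its strand setting. In 11 of the 47 genes a gene with a mean of at least 1 FPKM overlapped on the other strand: Orc2, Orc4, Orc6, Cdc45, Gins2, Rfc2, Rfc4, Rfc5, Fen1, Tk1 and Chaf1a. The most abundant of these neighbours was Eif4a2, at 67.5 FPKM, across Rfc4.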

How the data were processed

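Total RNA was taken from hearts with the miRNeasy micro kit and sequenced from Ovation Ultralow V2 libraries, per the labels' protocols, 3 FF and 3 cKO. The values are FPKM of 56748 genes, as deposited by the authors. TopHat2 2.0.13, Subread, featureCounts and edgeR are listed without order in the submitters' processing notes, as are GRCm39, mm10 and GRCh38, without a stated use. Of 52073 gene IDs shared with GENCODE M21 (GRCm38), 1472 had the same start and end, so gene coordinates are printed as deposited, and promoter sites are on GRCm38.

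FPKM times gene length gave whole reads (100% of values under 200 reads within 0.1). Genes with a mean of at least 1 FPKM entered a limma fit (version 3.58.1, R 4.3.3) of log2(FPKM + 1) on group alone, with the prior variance following mean level and Benjamini-Hochberg adjustment over all 12678 genes; a call is an adjusted p under 0.05. Folds on this scale understate changes of low genes. Group values are means ± SD. Alternatives, listed with their effect in the closing section, included limma voom on the recovered reads and a loess correction (span 0.5) on GC content, taken from the longest GENCODE M21 transcript. GC values were found for 98.4% of tested genes and all members. In simulated libraries for cKO against FF (12691 genes tested), limma recovered 96.7% of genes changed by 2-fold with 18 false calls with 6 libraries. Without FF replicate 3 it recovered 90.2% with 19 false calls. The simulated libraries shared a common mean per gene and a fixed small spread, with no shift of FF replicate 3. The simulation therefore checks the code and does not give the share recovered in the real libraries.

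The members and lists were chosen with earlier results of these data known, so lists carry counts and medians and no p. Values in every library are given for the 20 members with the smallest p, for members against the common direction by at least 0.20, and for the highest and lowest members; those of Orc1, Orc3, Orc6, Cdc7, Dbf4, Pola1, Pole, Rfc1, Rpa1, Rrm1, Tk1 and Wdhd1 were added after they were seen. Up to 4 genes of each pathway list with the smallest p are named. A result of the nucleotide synthesis list is not reported here.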

Additional observations from a re-analysis of the deposited data

How the results depend on the processing

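The members' median kept its sign under every alternative tried, and the number of members that passed depended on FF replicate 3. In limma the median log2 difference of members, -0.49 as reported, was -0.62 with a pseudocount of 0.1, -0.57 with 0.5 and -0.62 with voom on recovered reads, and ran from -0.57 to -0.45 when each library was left out in turn. Members past the threshold were 14 with GC correction and 33 (32 lower, 1 higher, Orc5) with library weights, which gave FF replicate 3 a weight of 0.0860. Leaving out each library gave 0 to 22 members, and 0 for every library but FF replicate 3, with 21 to 29 at an unadjusted p under 0.05. Without FF replicate 3, alternatives chosen after seeing the data gave 27 members with voom, 21 with quantile normalization, 22 with median-ratio scaling, 20 with a pseudocount of 0.1 and 13 of 23 with a mean FPKM of at least 5; the 22 reported members were all among the 27. All genes past the threshold, 21 as reported, were 11 with a pseudocount of 0.1, 0 with no filter (limma; 30 of 47 members at an unadjusted p under 0.05), 53 at a mean FPKM of at least 5, 59 with quantile normalization, 35 with scaling outside the mitochondrial genome and haemoglobin, 13 with a robust prior, 4300 with library weights, 536 with GC correction, 11 with voom, and 0 to 1520 without each library in turn.

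With the replicate block, 2 genes and 0 members passed in limma, and the members' median was -0.49. Same-numbered libraries had deviations correlated at 0.38, -0.24 and 0.24, so the numbers were not taken as pairs. Orc4 turned to -0.025 with quantile normalization, -0.29 with library weights, -0.12 with GC correction, -0.34 without FF replicate 3 and -0.096 without cKO replicate 1. Dbf4 turned to -0.094 and Rfc1 to -0.15 without FF replicate 3, with ranges over single left-out libraries up to 0.35 and 0.23, and with library weights Rfc1 was at -0.12, Pold2 at 0.059 and Pold3 at 0.012. The cause of these changes was not tested. Fen1 and Orc1 are limited by depth, with 18 to 100 reads per library, and intervals cover the spread of 2 or 3 libraries per group only.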
